A study of Homo sapiens with 9 samples.

Results

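The genes described here are 10 genes of TGF-beta and BMP signaling in MDA-MB-231 cells: the ligands TGFB1, TGFB2 and BMP4, the receptor TGFBR2, the signal transducer SMAD3, the inhibitory SMADs SMAD6 and SMAD7, and the ID genes ID1, ID2 and ID3. They were chosen by symbol, as the rows of the deposited count table whose Ensembl identifiers map to these names, and make up 10 of the 24344 genes in the table. All 10 passed the filter on low counts and were tested among 14195 genes. TGF-beta and BMP proteins are secreted ligands of the same superfamily. They bring type I and type II receptor kinases together, and the receptors phosphorylate SMAD proteins that enter the nucleus, SMAD3 being used by TGF-beta. SMAD6 and SMAD7 act back on the receptors and dampen the signal, and the ID proteins, which bind E-protein transcription factors and keep them off DNA, are well-known products of BMP signaling. In breast carcinoma cells TGF-beta is best known for promoting migration and invasion.

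MDA-MB-231 is an established human cell line from a triple-negative breast adenocarcinoma. The cells had been treated for 48 h with CKI (Compound Kushen Injection, which combines extracts of the herbs Kushen and Baituling) at 2 mg/mL of total alkaloid, with Kushen injection, or with Baituling injection, both single-herb injections being made by the process used for CKI and diluted in the same ratio. Each treatment had 3 libraries, which the submitters call biological replicates, and RNA was sequenced without strand information. Untreated libraries were not analyzed here, so every difference below is between treatments, and each group of libraries serves in 2 of the 3 comparisons.

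Library totals ranged from 20144628 to 23782071 counts. All 7 markers of mesenchymal-like MDA-MB-231 cells were detected, and the estrogen and progesterone receptor genes ESR1 and PGR had at most 4 counts in any library. The summed marker level ranged over 2426 to 2538 CPM for CKI, 3266 to 3276 for the Kushen group and 5946 to 6019 for Baituling, with VIM at a mean of 351, 584 and 2070 CPM, and all 7 were lower in CKI and in Kushen than in Baituling. The 8 luminal breast markers summed to 578 to 630, 678 to 703 and 1381 to 1487 CPM in the same order, most of it KRT8. Others of them were detected too: ERBB2 averaged 56.8, 64.1 and 104 CPM, EPCAM 7.75, 7.32 and 13.6, and GATA3 9.12, 9.4 and 23.3. CDH1 and FOXA1 averaged at most 2.01 CPM in any group. The 7 hepatocyte markers summed to 45.3 to 49.3, 32.9 to 35.5 and 43.3 to 46.9 CPM. Most of that was SERPINA1, at a mean of 45.8, 33.2 and 43.7 CPM, and ALB had at most 7 counts. The part of these markers in the results was not tested. CPM values are counts divided by library size after TMM scaling, which sets the typical gene equal between libraries. Baituling replicates 2 and 3 stood apart from the other libraries in keratinocyte genes. KRT5 had 93 and 124 counts there and 0 in each of the other 7 libraries, KRT6A had 52 and 64 counts against 0, and KRT14 had 50 and 40 against at most 3. The 6 keratinocyte markers, which were chosen to fit A431, another line of the study, summed to 108 to 124 CPM in CKI, 101 to 113 in the Kushen group and 361 to 399 in Baituling, most of it from SFN and all 3 Baituling libraries included. For members that passed the adjusted p against Baituling, fold changes are therefore also given from replicate 1 alone. Its spread is then assumed to equal that of the other groups. For the other pathway genes only the numbers called are given in that way, and not their fold changes.

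Compared per length, as reads per kilobase of exon in a library scaled to a common size (RPKM), the members spanned a wide range. In CKI the highest was TGFB1 at 69.0 ± 3.54 RPKM (mean ± SD of 3 libraries, as for the levels that follow), followed by BMP4 at 57.8 ± 0.73, ID1 at 45.0 ± 3.6, TGFBR2 at 40.7 ± 0.11 and SMAD3 at 28.6 ± 0.939. ID3 (9.32 ± 0.116), SMAD7 (9.29 ± 0.459) and TGFB2 (8.59 ± 0.0202) lay close together, and ID2 (1.11 ± 0.169) and SMAD6 (1.10 ± 0.02) were the lowest and did not differ beyond their spread. TGFB1 was the highest member in Kushen (77.6 ± 11.5 RPKM) and in Baituling (72.4 ± 2.29) as well. In Baituling, TGFBR2 was next at 54.4 ± 1.08, BMP4 (50.5 ± 1.72) and ID1 (50.5 ± 1.5) were level, and TGFB2 at 15.9 ± 0.42 stood above SMAD7 at 4.74 ± 0.402 and ID3 at 2.43 ± 0.376. ID3 was thus among the mid-level members in CKI and among the 3 lowest in Baituling, while TGFB2 moved the other way.

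**Figure D1:**
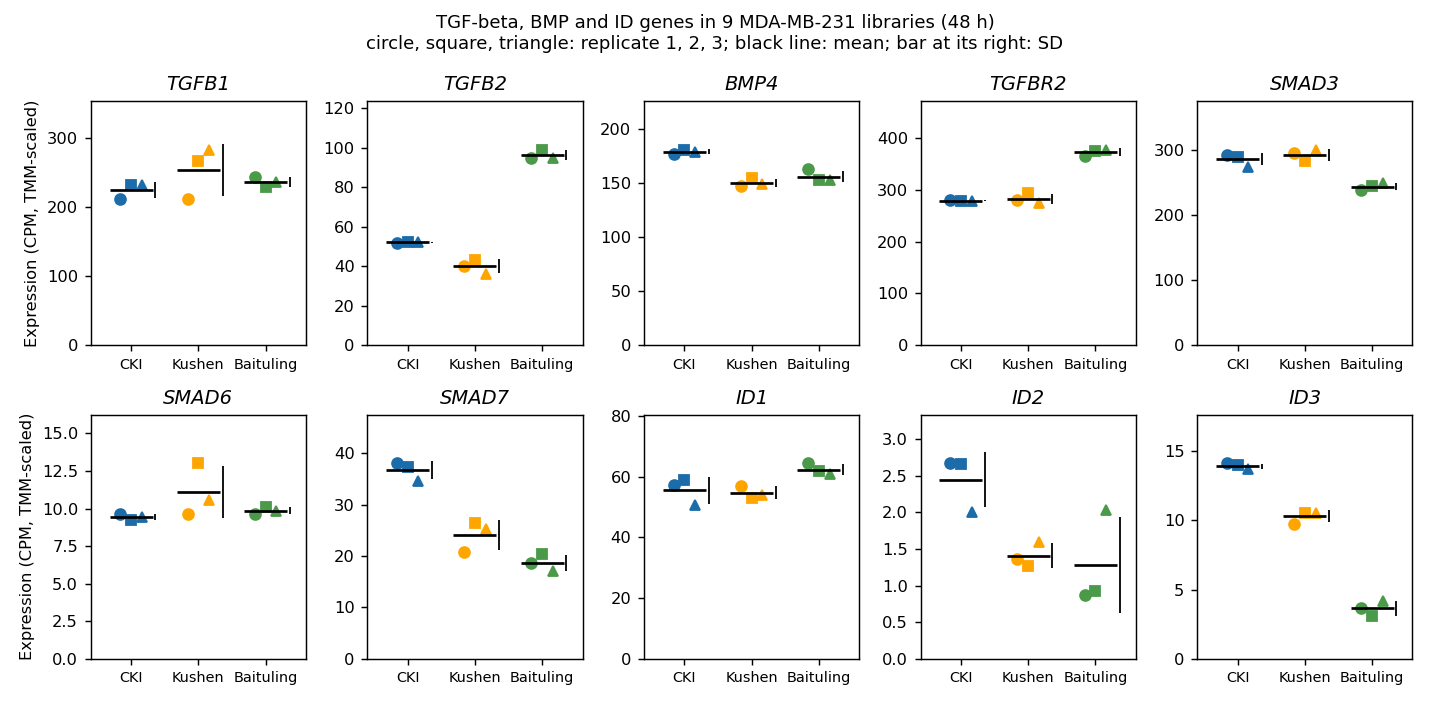
Expression of the 10 genes in each of the 9 libraries, in CPM on the TMM scale with every vertical axis starting at 0. Points are libraries (circle, square and triangle for replicates 1, 2 and 3), the black line is the mean of 3 and the bar at its right is the SD; ID3 and SMAD7 step down from CKI to Kushen to Baituling, TGFB2 and TGFBR2 are highest in Baituling, and Kushen replicate 1 lies below the other 2 Kushen libraries in TGFB1.

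CKI was compared with each single-herb injection, and the single-herb injections with each other, to see how the herbs relate to the combined product. In edgeR's quasi-likelihood test, 5 of the 10 members had an adjusted p under 0.05 in CKI against Kushen, all 5 higher in CKI (TGFB2, BMP4, SMAD7, ID2 and ID3), against 39.8% of all genes tested, 19.6% higher and 20.2% lower. None of them was called, which also needs a log2 fold change past 1 in either direction and held for 1.90% of all genes. DESeq2 called none either, and 7 members had an unadjusted p under 0.05. In CKI against Baituling 8 members passed the adjusted p (all genes 76.1%), 5 higher and 3 lower in CKI (all genes 39.1% and 37.0%), and 1, ID3, was called, on the higher side (all genes 19.1%, 11.2% higher and 7.91% lower). In Kushen against Baituling 6 members passed (all genes 71.6%), 3 higher and 3 lower in Kushen (all genes 35.6% and 36.1%), and 2 were called (all genes 15.2%), ID3 on the higher side (all genes 8.50%) and TGFB2 on the lower (6.73%). The libraries of the groups did not overlap for 6, 8 and 6 members in the same order, against 49.5%, 78.3% and 73.1% of all genes. In both comparisons with Baituling the shares of members that passed lie near those of all genes. Between CKI and Kushen, 50% of the members passed, all of them higher, but the 10 were chosen with earlier results known, and they are described singly and not as a set. With Baituling replicate 1 alone, 7 members passed and 2 (ID2 and ID3) were called between CKI and Baituling, and 6 passed and 2 were called between Kushen and Baituling. In bulk RNA, fewer cells of a type and less RNA per cell cannot be told apart. Scaling by library totals instead shifts the typical gene by 0.08, 0.29 and 0.21 (log2) in the order of the comparisons, and the members past the adjusted p were then 6 higher and 2 lower in each comparison with Baituling.

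**Figure D2:**
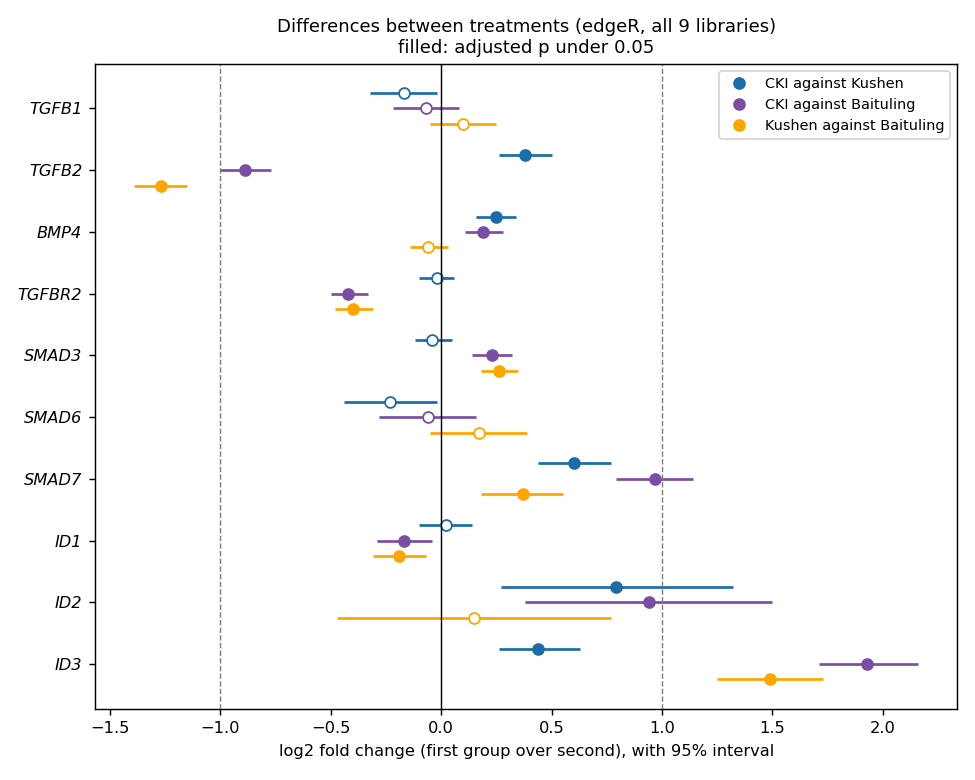
Log2 fold changes of the 10 genes in the 3 comparisons, the first-named group over the second, with 95% intervals from edgeR; filled points have an adjusted p under 0.05 and dashed lines mark a log2 fold change of 1. ID3 lies farthest to the right against Baituling (1.93 for CKI, 1.49 for Kushen), and TGFB2 farthest to the left (-0.89 and -1.27).

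Among the ligands, TGFB2 differed most. TGFB2 (chr1:218518678-218617961, plus strand, build GRCh37) encodes the second TGF-beta isoform. It was at 51.8, 52.1 and 52.0 CPM in the CKI libraries, 40.2, 43.3 and 36.2 CPM in Kushen, and 94.7, 99.0 and 94.6 CPM in Baituling. The 3 groups did not overlap: Baituling was highest, CKI intermediate and Kushen lowest, and each step passed the test. TGFB2 was 1.85-fold higher in Baituling than in CKI (log2 fold change of CKI against Baituling -0.89 ± 0.05, SE as for all later log2 values, adjusted p = 1.75e-11) and 2.41-fold higher than in Kushen (-1.27 ± 0.06, adjusted p = 1.79e-13). With Baituling replicate 1 alone these log2 differences were -0.88 and -1.25. CKI was 1.30-fold above Kushen (0.38 ± 0.06, adjusted p = 3.74e-05). TGFB2 shares exonic bases with TGFB2-OT1 on the same strand, which is not in the table, and with the antisense gene TGFB2-AS1, whose reads cannot be told apart without strand. TGFB2-AS1 held 87 to 90 counts in CKI, 40 to 54 in the Kushen group and 64 to 120 in Baituling, where TGFB2 held 1292 to 1321, 815 to 1055 and 1713 to 1941.

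The 250 bases before the annotated TGFB2 start are shown because, of the members higher in Baituling than in the other groups, TGFB2 differed most. Capitals mark CAGAC, the short SMAD-binding letters, which were searched on both strands. They occur in this stretch of 37.6% of 18717 protein-coding genes and of 5 members (ID2, ID3, SMAD7, TGFB2 and BMP4), so a match describes the sequence and no binding. The stretch is chr1:218518428-218518677, plus strand, from the GRCh37 reference with GENCODE gene starts, and overlaps TGFB2-AS1.
TGFB2: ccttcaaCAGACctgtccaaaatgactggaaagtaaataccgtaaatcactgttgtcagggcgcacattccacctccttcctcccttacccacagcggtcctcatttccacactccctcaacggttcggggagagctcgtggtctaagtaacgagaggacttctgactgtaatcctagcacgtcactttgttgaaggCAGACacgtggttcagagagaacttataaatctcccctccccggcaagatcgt

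TGFB1, the main TGF-beta isoform (chr19:41807492-41859827, minus strand), was at 212, 232 and 232 CPM in CKI, 211, 266 and 283 CPM in Kushen and 244, 229 and 236 CPM in Baituling. The groups overlapped in each comparison. Its log2 fold change was -0.17 ± 0.07 for CKI against Kushen (adjusted p = 0.0737), -0.07 ± 0.07 for CKI against Baituling (0.394) and 0.10 ± 0.07 for Kushen against Baituling (0.236), with 95% intervals that stay within 0.32 of 0. The test depended on Kushen replicate 1, on the filter and on the scaling. Without that library Kushen was above CKI by a log2 of 0.29 (CKI against Kushen -0.29, adjusted p = 4.22e-05) and above Baituling by 0.21 (adjusted p = 3.52e-04). With no filter on low counts, TGFB1 also passed as lower in CKI than in Kushen. With upper quartile scaling it also passed as higher in Kushen than in Baituling. With library totals TGFB1 was higher in CKI than in Baituling by 0.22 (adjusted p = 0.00589) and in Kushen by 0.31 (adjusted p = 3.34e-04). TGFB1 shares exonic bases with HNRNPUL1 on the other strand, and reads from the shared bases cannot be told apart without strand. HNRNPUL1 held 9513 to 10051 counts in CKI, 9762 to 10828 in the Kushen group and 12935 to 14761 in Baituling.

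BMP4 (chr14:54416454-54425479, minus strand), a BMP ligand that signals through SMAD1, SMAD5 and SMAD9, was at 177, 181 and 179 CPM in CKI, 147, 155 and 149 CPM in Kushen and 163, 153 and 153 CPM in Baituling. Every CKI library lay above every library of the other groups, which overlapped each other. BMP4 was 1.19-fold higher in CKI than in Kushen (0.25 ± 0.04, adjusted p = 8.97e-05) and 1.14-fold higher than in Baituling (0.19 ± 0.04, adjusted p = 3.17e-04). The second difference was 0.12 with an adjusted p of 0.0717 when Baituling replicate 1 stood alone. Kushen and Baituling were not shown to differ (-0.06 ± 0.04, 95% interval -0.14 to 0.03), though with library totals Kushen was higher by 0.16 (adjusted p = 0.00129). BMP4 and SMAD3 each overlap an unnamed long noncoding RNA gene on the other strand that is not in the table.

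TGFBR2 (chr3:30648093-30735634, plus strand), the type II receptor that binds TGF-beta, was at 280, 279 and 278 CPM in CKI, 281, 294 and 275 CPM in Kushen and 365, 376 and 378 CPM in Baituling. All 3 Baituling libraries were above the other 6, and CKI and Kushen overlapped. The level in Baituling was 1.34-fold that in CKI (-0.42 ± 0.04 for CKI against Baituling, adjusted p = 1.15e-08) and 1.32-fold that in Kushen (-0.40 ± 0.04, adjusted p = 3.12e-08). With replicate 1 alone the differences were -0.40 and -0.37. Between CKI and Kushen the log2 difference was -0.02 with a 95% interval of -0.10 to 0.06.

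SMAD3 (chr15:67356101-67487511, plus strand) went the other way, with 292, 290 and 275 CPM in CKI, 296, 283 and 301 CPM in Kushen and 239, 245 and 249 CPM in Baituling. All Baituling libraries were below the other 6. It was 1.17-fold higher in CKI than in Baituling (0.23 ± 0.04, adjusted p = 6.12e-05) and 1.20-fold higher in Kushen than in Baituling (0.26 ± 0.04, adjusted p = 1.29e-05), or 0.25 and 0.29 on the log2 scale with replicate 1 alone. CKI and Kushen overlapped, at a log2 difference of -0.04 (95% interval -0.12 to 0.05). Baituling libraries thus held more RNA of the receptor TGFBR2 and of the ligand TGFB2, and less of SMAD3, than libraries of either other group.

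SMAD6 and SMAD7 are shown with the stretches of their promoters that hold GTCTAGAC, an 8-letter run equal to its own reverse complement in which SMAD-binding letters face each other. Among 18717 windows reaching from 2000 bases before to 500 bases after the start of protein-coding genes it occurs in 1.43%, and among the 10 members in these 2 only. Capitals mark the run, which describes the sequence and shows no binding, and both stretches are from build GRCh37. That of SMAD6 (chr15:66994514-66994573, plus strand) has it 12 bases before the annotated start, and that of SMAD7 (chr18:46478566-46478625, minus strand) 1260 bases before it.
SMAD6: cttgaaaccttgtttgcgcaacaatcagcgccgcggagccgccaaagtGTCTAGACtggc
SMAD7: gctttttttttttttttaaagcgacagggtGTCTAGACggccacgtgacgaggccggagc

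The levels of the inhibitory SMADs differed between treatments for SMAD7 and were not shown to differ for SMAD6. SMAD7 (chr18:46446223-46477335, minus strand), which blocks receptor access for SMADs of both branches and recruits ubiquitin ligases to the receptor, was at 38.0, 37.4 and 34.6 CPM in CKI, 20.8, 26.4 and 25.2 CPM in Kushen and 18.7, 20.3 and 17.1 CPM in Baituling. The 3 groups did not overlap, with CKI highest and Baituling lowest. It was 1.52-fold higher in CKI than in Kushen (0.60 ± 0.08, adjusted p = 7.13e-06), 1.96-fold higher in CKI than in Baituling (0.97 ± 0.08, adjusted p = 2.55e-09) and 1.29-fold higher in Kushen than in Baituling (0.37 ± 0.09, adjusted p = 9.62e-04). With Baituling replicate 1 alone, the latter 2 were 0.95 and 0.36. The fold of CKI over Baituling lies just inside the limit for a call, and SMAD7 was called there when CKI replicate 3 or Baituling replicate 2 was left out.

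SMAD6 (chr15:66994574-67075187, plus strand), which acts mainly on the BMP branch, was at 9.61, 9.27 and 9.44 CPM in CKI, 9.62, 13.0 and 10.6 CPM in Kushen and 9.66, 10.1 and 9.83 CPM in Baituling. All libraries except Kushen replicates 2 and 3 lay between 9.27 and 10.1 CPM, the CKI libraries just below the others. The log2 fold change was -0.23 ± 0.10 for CKI against Kushen (adjusted p = 0.0781), -0.06 ± 0.11 for CKI against Baituling (0.608) and 0.17 ± 0.11 for Kushen against Baituling (0.157). Without Kushen replicate 1 the first became -0.33 (adjusted p = 0.0143) and the last 0.26 (adjusted p = 0.031), which was 0.38 with library totals (adjusted p = 0.00281). The last also passed with upper quartile scaling. The largest difference that the 95% intervals of the 9 libraries allow is a log2 of 0.44.

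The ID genes did not move together. ID3 (chr1:23884417-23885992, minus strand), whose product binds E proteins, was at 14.1, 14.0 and 13.7 CPM in CKI, 9.74, 10.5 and 10.5 CPM in Kushen and 3.66, 3.07 and 4.20 CPM in Baituling. The 3 groups did not overlap, and the order was that of SMAD7. How many of all genes share this order, or the other shared orders named below, was not counted. ID3 was 3.82-fold higher in CKI than in Baituling (1.93 ± 0.11, adjusted p = 4.12e-12) and 2.81-fold higher in Kushen than in Baituling (1.49 ± 0.11, adjusted p = 5.58e-10), the largest differences among the members. With Baituling replicate 1 alone they were 1.91 and 1.48. CKI was 1.36-fold above Kushen (0.44 ± 0.09, adjusted p = 5.58e-04). The values rest on 347 to 359 counts per library in CKI, 237 to 257 in the Kushen group and 56 to 76 in Baituling.

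ID1 (chr20:30193086-30194318, plus strand) was at 57.1, 59.0 and 50.5 CPM in CKI, 57.0, 52.9 and 53.9 CPM in Kushen and 64.3, 61.7 and 60.8 CPM in Baituling. On the TMM scale it was highest in Baituling, where ID3 was lowest, and CKI and Kushen overlapped. The differences were small: -0.17 ± 0.06 for CKI against Baituling (adjusted p = 0.0141, a 1.12-fold higher level in Baituling) and -0.19 ± 0.06 for Kushen against Baituling (adjusted p = 0.00673, 1.14-fold), or -0.23 and -0.24 with replicate 1 alone. The first did not pass without CKI replicate 3 (-0.10, adjusted p = 0.106) or without Baituling replicate 1 (-0.14, adjusted p = 0.0537), nor with upper quartile scaling (-0.10, adjusted p = 0.145) or at least 10 counts in every library (-0.12, adjusted p = 0.0615). The second did not pass with upper quartile scaling (-0.12, adjusted p = 0.0748). With library totals in place of TMM both turned to 0.12 and 0.02, so the direction of ID1 depends on the scaling. Between CKI and Kushen the log2 difference was 0.02 (95% interval -0.10 to 0.14).

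ID2 (chr2:8818975-8824591, plus strand) was the least abundant ID gene per length, at 2.67, 2.66 and 2.01 CPM in CKI, 1.37, 1.27 and 1.60 CPM in Kushen and 0.878, 0.932 and 2.04 CPM in Baituling. These are 51 to 68, 31 to 36 and 17 to 37 counts per library. Every CKI library was above every Kushen library, and Baituling replicate 3 reached the lowest CKI library. ID2 was 1.73-fold higher in CKI than in Kushen (0.79 ± 0.25, adjusted p = 0.0158) and 1.92-fold higher than in Baituling (0.94 ± 0.27, adjusted p = 0.0035). The first did not pass without CKI replicate 1, CKI replicate 2 or Kushen replicate 2 (adjusted p 0.0608, 0.0627 and 0.0544). With Baituling replicate 1 alone the second was 1.46, which is past the limit for a call, and ID2 was called there without CKI replicate 3 or Baituling replicate 3 as well. Its antisense neighbor ID2-AS1 held 0 to 2 counts. Kushen and Baituling were not shown to differ (0.15 ± 0.29, 95% interval -0.47 to 0.77).

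Promoter stretches of ID1 and ID3 are shown because ID1 did not share the low level of ID3 in Baituling relative to the other groups. The ID1 stretch (chr20:30192046-30192205, plus strand, build GRCh37) lies 881 to 1040 bases before the annotated start and overlaps the annotated gene ENSG00000289875. Capitals mark GGCGCC, the letters of the BMP-responsive element, 959 bases before the start, and the letters GTCTG, which read as CAGAC on the other strand. The BMP-responsive letters equal their own reverse complement and occur in 58.2% of the 18717 windows and in those of 6 members. The ID3 stretch is the 250 bases before the start (chr1:23885993-23886242, minus strand), with CAGAC in capitals. ID1 has no CAGAC on either strand in its own 250 bases before the start. The share of 37.6% of genes given above is for those 250 bases and does not apply to the ID1 stretch. The stretches lie at unlike distances from the start, so their marks cannot be compared. No GGCGCC was found in the ID3 window, which says only that these letters are not there.
ID1: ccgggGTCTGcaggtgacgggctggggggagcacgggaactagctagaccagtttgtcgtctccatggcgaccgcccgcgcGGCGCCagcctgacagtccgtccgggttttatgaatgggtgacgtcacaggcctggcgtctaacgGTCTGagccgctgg
ID3: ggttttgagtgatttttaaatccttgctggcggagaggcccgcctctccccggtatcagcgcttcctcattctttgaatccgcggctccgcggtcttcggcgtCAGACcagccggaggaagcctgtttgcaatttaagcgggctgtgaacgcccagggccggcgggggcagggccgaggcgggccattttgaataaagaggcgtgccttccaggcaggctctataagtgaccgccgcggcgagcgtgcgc

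Ratios of raw counts within a library do not depend on how libraries are scaled. Pairs were formed within a family after the values were seen, so they are a description with no test. For every 100 counts of ID1, ID3 had 24.7, 23.7 and 27.2 in the CKI libraries, 17.1, 19.9 and 19.5 in Kushen and 5.69, 4.98 and 6.90 in Baituling. For every 100 counts of SMAD6, SMAD7 had 396, 403 and 367 in CKI, 216, 203 and 238 in Kushen and 194, 201 and 174 in Baituling. For every 100 counts of TGFB1, TGFB2 had 24.5, 22.4 and 22.4 in CKI, 19.1, 16.3 and 12.8 in Kushen and 38.8, 43.2 and 40.1 in Baituling. The groups did not overlap in any of the 3 ratios.

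**Figure D3:**
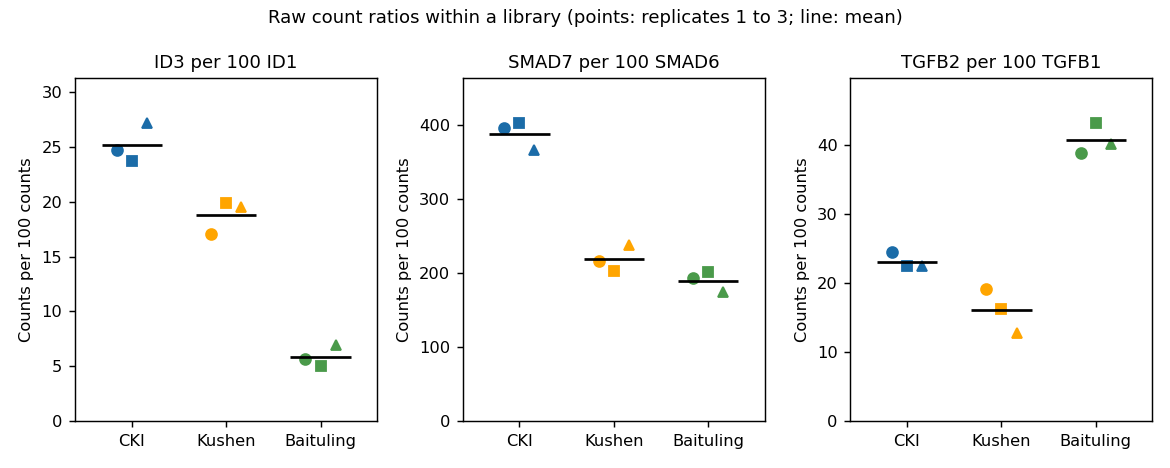
Raw counts of ID3 per 100 counts of ID1, of SMAD7 per 100 of SMAD6 and of TGFB2 per 100 of TGFB1 in each library, with vertical axes starting at 0; points are replicates 1 to 3 and lines are group means. Baituling is lowest in ID3 (4.98 to 6.90) and highest in TGFB2 (38.8 to 43.2), and CKI is highest in SMAD7 (367 to 403).

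Other genes of the pathway were taken from 10 lists written by role, 132 genes in all, of which 131 were in the table and 101 passed the filter. Counts of higher and lower genes are of those with an adjusted p under 0.05. In CKI against Kushen, 33 were higher and 19 lower in CKI (51.5% in all, all genes 39.8%), and 6 were called, all higher in CKI, which is 5.94% against 1.90% of all genes (1.70% higher and 0.197% lower). Against Baituling, 51 were higher and 37 lower in CKI (87.1%, all genes 76.1%), and 26 were called (25.7%, all genes 19.1%). For Kushen over Baituling, 36 were higher and 39 lower in Kushen (74.3%, all genes 71.6%), and 20 were called (19.8%, all genes 15.2%). With Baituling replicate 1 alone the calls were 25 and 21. With library totals the numbers past the adjusted p were 44 higher and 13 lower, 62 and 22, and 50 and 32 in the 3 comparisons. The medians of the 101 log2 fold changes were 0.08, 0.14 and -0.06, beside 0.01, 0.03 and 0.02 for all genes tested. The genes called in CKI against Kushen included GDF15, SOST, HES1, JUNB and PTHLH, the last 2 named here after their values were seen.

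**Figure D4:**
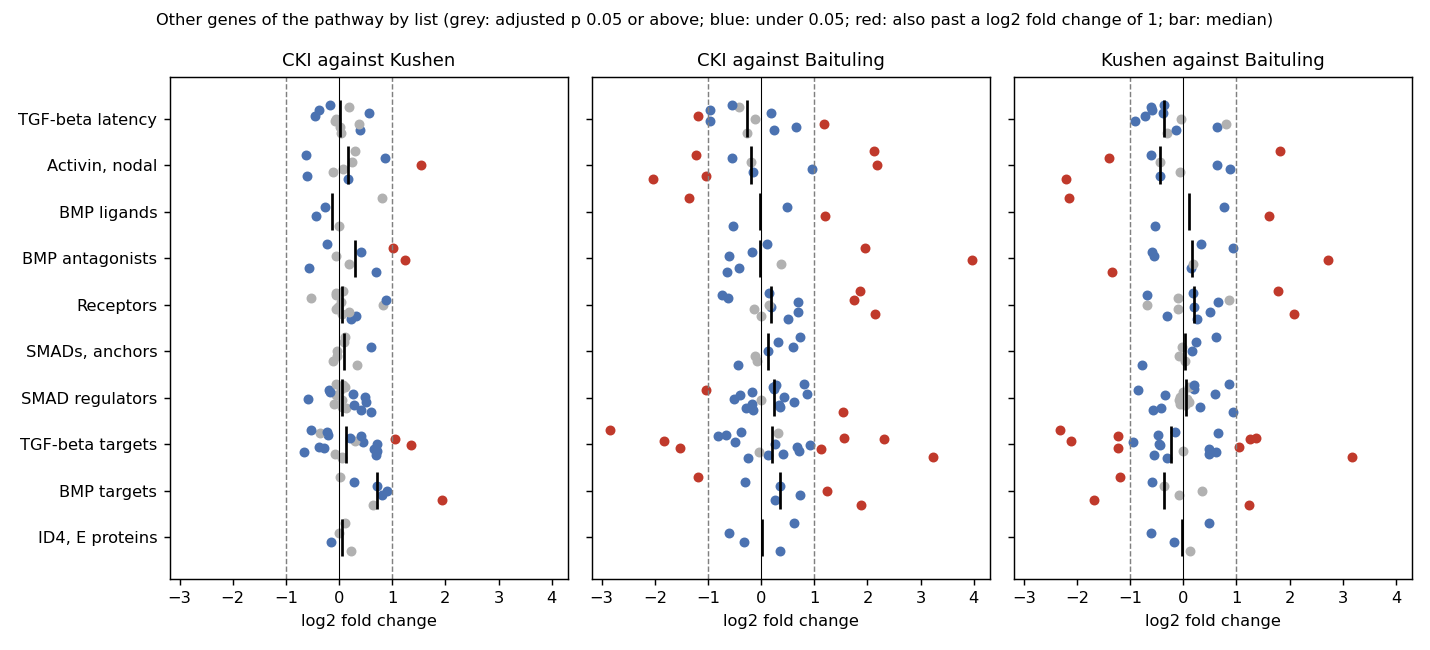
Log2 fold changes of the 101 other pathway genes tested, by list and comparison, the first-named group over the second. Points are genes (grey, adjusted p of 0.05 or above; blue, under 0.05; red, also past a log2 fold change of 1), vertical bars are list medians; the red points number 6, 26 and 20 from left to right, and those of CKI against Kushen all lie to the right of 0.

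Of 9 tested genes for activins, nodal and their binding proteins, 5 were called between CKI and Baituling (55.6%, all genes 19.1%), 3 between Kushen and Baituling (33.3%, all genes 15.2%) and 1 between CKI and Kushen (11.1%, all genes 1.90%). FST, the activin-binding follistatin, was at 22.7 to 24.8 CPM in CKI and 20.5 to 22.5 in Kushen and averaged 98.0 ± 2.02 CPM (SD, n = 3) in Baituling, a log2 fold change of -2.03 ± 0.05 for CKI and -2.21 ± 0.06 for Kushen against Baituling. INHBA, which encodes the activin A subunit, was lowest in Kushen (9.72 to 11.3 CPM), intermediate in CKI (18.0 to 19.0) and highest in Baituling (25.8 to 28.0), the same order as TGFB2. GDF15, a distant member of the superfamily induced by cell stress, ran from 181 to 215 CPM in CKI to 58.2 to 74.6 in the Kushen group and 42.3 to 44.4 in Baituling, and CKI exceeded Kushen by 1.54 ± 0.07 (adjusted p = 1.29e-11). FSTL1, a follistatin-like secreted protein, was lowest in CKI, with a log2 fold change of -1.03 ± 0.05 against Baituling.

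Of the other BMP ligands 4 of 12 in the table were tested. BMP6 was at 4.86 to 6.45 CPM in CKI, 5.59 to 8.78 in the Kushen group and 1.82 to 2.80 in Baituling. It was higher than in Baituling by 1.20 ± 0.20 in CKI and 1.62 ± 0.20 in Kushen. GDF5 stayed under 1.5 CPM in every library and was highest in Baituling. Of 8 tested secreted BMP antagonists and modulators, 4 were higher and 2 lower in CKI than in Kushen (all genes 19.6% and 20.2%), 3 higher and 4 lower in CKI than in Baituling (39.1% and 37.0%), and 4 higher and 3 lower in Kushen than in Baituling (35.6% and 36.1%). SOST, which encodes the antagonist sclerostin, was at 7.69 to 8.53 CPM in CKI, 3.38 to 5.06 in the Kushen group and 1.99 to 2.24 in Baituling, so that each group stood apart in the order of ID3 and SMAD7. BMPER, a modulator of BMP activity, was lowest in Kushen (2.94 to 3.55 CPM) and highest in Baituling (8.12 to 8.83). Of 11 tested genes for the storage and release of TGF-beta, 2 were higher and 3 lower in CKI than in Kushen (all genes 19.6% and 20.2%), 4 higher and 4 lower in CKI than in Baituling (39.1% and 37.0%), and 1 higher and 7 lower in Kushen than in Baituling (35.6% and 36.1%). LTBP2, a latent TGF-beta binding protein, was lower than in Baituling both in CKI (log2 fold change -1.18 ± 0.07) and in Kushen (-0.72 ± 0.07). The integrin gene ITGB6 rested on 2 to 24 counts per library.

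Of 13 tested receptors other than TGFBR2, 8 were higher and 2 lower in CKI than in Baituling (76.9% in all, all genes 76.1%), with 3 called (23.1%, all genes 19.1%). For Kushen over Baituling 7 were higher and 2 lower (69.2%, all genes 71.6%), with 2 called (15.4%, all genes 15.2%), so both shares were near those of all genes. Between CKI and Kushen 3 passed, all higher in CKI (23.1%, all genes 39.8%). TGFBR3, the co-receptor betaglycan that presents TGFB2 to TGFBR2, was at 27.7 to 30.3 CPM in CKI, 26.4 to 28.7 in the Kushen group and 7.17 to 8.34 in Baituling (1.86 ± 0.08 and 1.78 ± 0.08), opposite in direction to both TGFB2 and TGFBR2. The activin-type receptor gene ACVR1C was lower in Baituling than in both other groups, on 3 to 9 counts per library there. The co-receptor gene CD109, on 2 to 17 counts there, was lower than in CKI and was not shown to differ from Kushen (adjusted p = 0.0657). Of 7 tested genes for other SMADs and anchor proteins, 4 were higher and 1 lower in CKI than in Baituling (71.4%, all genes 76.1%), 3 higher and 1 lower in Kushen than in Baituling (57.1%, all genes 71.6%), and 1 was higher in CKI than in Kushen (14.3%, all genes 39.8%). Relative to Baituling, the anchor gene ZFYVE9 was higher in CKI by 0.73 ± 0.06 and in Kushen by 0.62 ± 0.06, and ZFYVE16 by 0.32 ± 0.06 and 0.23 ± 0.06.

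Of 18 tested regulators of SMAD signaling, 10 were higher and 7 lower in CKI than in Baituling (all genes 39.1% and 37.0%), 6 higher and 4 lower in Kushen than in Baituling (35.6% and 36.1%), and 6 higher and 3 lower in CKI than in Kushen (19.6% and 20.2%). BAMBI, a pseudoreceptor that dampens TGF-beta and BMP signals, averaged 46.7 ± 2.63 CPM (SD, n = 3) in CKI, 30.6 ± 2.91 in the Kushen group and 16.1 ± 2.24 in Baituling. It stepped down in the order of the inhibitory SMAD7, by 0.61 ± 0.08 from CKI to Kushen (adjusted p = 5.92e-06) and by 0.93 ± 0.09 from Kushen to Baituling (adjusted p = 2.20e-08). USP11, a deubiquitinase, was highest in Baituling (106 to 122 CPM, against 53.1 to 65.1 in the other libraries).

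Genes commonly induced by TGF-beta split in both directions. Of 20 tested, 10 were higher and 8 lower in CKI than in Baituling (all genes 39.1% and 37.0%), 8 higher and 11 lower in Kushen than in Baituling (35.6% and 36.1%), and 9 higher and 6 lower in CKI than in Kushen (19.6% and 20.2%). ANGPTL4, a secreted lipase inhibitor, was at 156 to 173 CPM in CKI, 142 to 172 in the Kushen group and 14.6 to 19.9 in Baituling. The matrix genes TNC and FN1 went the other way: TNC was at 19.1 to 19.8 CPM in CKI, 26.8 to 28.5 in the Kushen group and 136 to 141 in Baituling, and FN1 at 476 to 488, 572 to 612 and 1280 to 1471 CPM.

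Of 7 tested genes commonly induced by BMP, without the ID genes, 5 were higher in CKI than in Kushen and 2 did not pass (all genes 19.6% higher and 20.2% lower). The 5 were HES1, HEYL, HEY1, MSX2 and RUNX2, the last 3 named after their values were seen. The median log2 fold change of the 7 was 0.72 beside 0.01 for all genes. Which signal the 7 genes followed was not tested. In CKI against Baituling 5 were higher and 2 lower (39.1% and 37.0%), with a median of 0.36 beside 0.03. For Kushen over Baituling 1 was higher and 3 lower (35.6% and 36.1%), with a median of -0.37 beside 0.02. HES1, also a Notch target, was at 59.9 to 69.2 CPM in CKI, 12.9 to 20.1 in the Kushen group and 48.6 to 60.3 in Baituling, and exceeded Kushen by 1.93 ± 0.11 in CKI (adjusted p = 1.54e-10). HEYL and ATOH8 stayed under 1.6 CPM in every library. TNFRSF11B, which encodes the decoy receptor osteoprotegerin, was highest in Baituling, at 6.47 to 7.27 CPM against 2.71 to 3.30. Of the fourth ID gene and the 3 E-protein genes, TCF3 was higher in Baituling (139 to 145 CPM) than in CKI (89.4 to 95.9) and Kushen (77.0 to 104), and TCF12 was highest there too (40.0 to 44.4 CPM, against 32.6 to 38.6). The third E-protein gene, TCF4, named after its values were seen, went the other way and was lower in Baituling than in CKI (adjusted p = 0.00549) and Kushen (adjusted p = 0.0245).

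The genes whose log2 CPM followed each member most closely over the 9 libraries, among 11965 genes, are given as a description, since 9 libraries in 3 groups give high correlations for many genes. The closest to ID3 was FAM177A1 (Pearson r = 0.997), to SMAD7 ABTB2 (0.992), to TGFB2 PSMD14 (0.997), to TGFBR2 SPAG5 (0.998), to SMAD3 SPG7 (0.996) and to BMP4 NOCT (0.982). For the other members the closest were DNASE1 for ID2 (0.973), POLM for ID1 (0.955), TEKTIP1 for TGFB1 (0.941) and AZIN2 for SMAD6 (0.923).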

How the data were processed

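Whole-number counts per gene were deposited by the authors without normalization, for unstranded paired-end libraries. According to the submitters' processing notes, reads were trimmed with Trim Galore 0.3.7 and aligned with STAR 2.5.3a to hg19. The counting program and annotation are not given in the sources used here. The table has 24566 rows, of which 222 repeat a gene with identical counts, leaving 24344 genes. GENCODE on GRCh37, the same assembly as hg19, named 24224, and GDF2 was the listed gene not found in the table.

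All 9 libraries entered edgeR 4.0.16 (R 4.3.3) with TMM, filterByExpr (minimum count 10, minimum total 15) and group as the only term. Tests were two-sided quasi-likelihood tests with Benjamini-Hochberg adjustment over 14195 genes, and a gene was called at an adjusted p under 0.05 with a log2 fold change past 1. The common coefficient of biological variation was 4.53%. Replicates of a group differed by more than sampling noise (chi-square per gene 1.704 to 6.85 in 9 pairs with at least 20 reads a gene). An exact permutation test of 3 against 3 libraries cannot go below 0.1, so p-values come from the fit across genes. The method was also run on counts simulated from its own estimated spread, with changes past the limit for a call in some genes of CKI only. That run does not test the smaller differences seen for most members.

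The members, the gene lists and the tests were chosen with earlier results of these data known, so they are not independent evidence. Named were all members, and of each list the genes called in any comparison if 4 or fewer, otherwise the 4 with the smallest adjusted p, and if none was called the 2 with the smallest, and for each member the genes most correlated with it, of which the closest is given. Some genes that this rule names are not reported here. RPKM used the merged exon length. Alternatives covered scaling, filters, DESeq2 1.42.0, the groups fitted, the replicate number as a block and left-out libraries.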

Additional observations from a re-analysis of the deposited data

How the results depend on the processing

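The counts below are of genes past the adjusted p or called, recomputed under the alternatives, the test against a log2 fold change of 1 for called genes only: 212 counts stayed within 1.5 times the reported count and 10 did not. Of the 10 members' log2 fold changes, 507 kept direction and side of the threshold, 9 became weaker, 9 stronger and 15 reversed. The causes were not tested. Members called in CKI against Baituling numbered 1 as reported, 3 with library totals and with upper quartile scaling, 2 with at least 10 counts in every library, and 2 without the keratin-holding Baituling libraries (an alternative chosen after the data were seen). Leaving out 1 library gave 1 to 3: 3 without CKI replicate 3, 2 without Baituling replicate 2 and 2 without Baituling replicate 3. Added calls were SMAD7, ID2 or both. Listed pathway genes called fell from 6 to 3 in CKI against Kushen and from 26 to 16 in CKI against Baituling when tested against a log2 fold change of 1, and from 26 to 17 with at least 10 counts in every library. Library totals moved the median of all genes by 0.08, 0.29 and 0.21 in CKI over Kushen, CKI over Baituling and Kushen over Baituling. They reversed SMAD3 (0.04) and TGFBR2 (0.05) in CKI against Kushen. For CKI over Baituling they reversed ID1 (0.12), SMAD6 (0.23) and TGFB1 (0.22). In Kushen against Baituling they reversed ID1 (0.02) and BMP4 (0.16). Upper quartile scaling reversed SMAD6 (0.01) and TGFB1 (0.00) in CKI against Baituling and BMP4 (0.01) in Kushen against Baituling. Leaving out 1 library in CKI against Kushen gave -0.02 to 0.09 for ID1 (below 0 without CKI replicate 2 or Kushen replicate 2, -0.00) and -0.05 to 0.00 for TGFBR2 (above without Kushen replicate 2). It gave -0.07 to 0.63 for ID2 in Kushen against Baituling (below 0 without Baituling replicate 1, and -0.03 without Baituling replicate 2). Members higher and lower in Kushen against Baituling were 5 and 2 with upper quartile scaling, against 3 and 3. Same-numbered libraries did not pair (correlations of their deviations -0.075 to 0.123 in 9 pairs, against -0.148 to 0.181 in 18 pairs of different numbers), and with the replicate number as a block the members called stayed at 0, 1 and 2 and those past the adjusted p at 5, 8 and 6. Depth limits ID2 most, at 17 to 68 counts per library.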
